A study of Mus musculus with 16 samples.

Results

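Expression of the cardiac myosin genes was compared between wild-type (WT) mice and littermates of the transgenic line B3AR-Tg (B3AR is the usual short name of the beta-3 adrenergic receptor). The genes came from the table of counts per gene: the heavy chains Myh6, Myh7 and Myh7b, the light chains Myl2, Myl3, Myl4 and Myl7, and the light chain kinase Mylk3. All 8 were found, among 35682 genes. They were taken by symbol, whatever their values, with earlier results of these data known. Ventricular myocytes had been isolated from adult hearts 9 weeks after transverse aortic constriction (TAC), a narrowing of the aorta that loads the left ventricle, and kept on plates for 1 hour. Each genotype had 8 animals, and every animal of both genotypes had undergone TAC, so no unoperated or sham-operated heart enters the comparison. The promoter and the species of the transgene, and the sex and exact age of the animals, were not given in the sources used here.

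Myosin is the motor of the thick filament. A pair of heavy chains carries the ATPase heads, and each head binds an essential and a regulatory light chain. The adult mouse ventricle makes mainly the fast alpha heavy chain from Myh6, while the slow beta heavy chain from Myh7 is the main isoform before birth and returns in many models of cardiac overload. Myl2 and Myl3 encode the regulatory and essential light chains of the ventricle, and Myl7 and Myl4 those of the atrium. Mylk3 encodes the cardiac kinase that phosphorylates the regulatory light chain.

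Myh6 and Myh7 lie next to each other on mouse chromosome 14, minus strand, at 54941921 to 54966927 and 54970684 to 54994626 (GENCODE M21, GRCm38). Between their gene bodies are 3756 bases. Myh7b lies on chromosome 2, from 155611212 to 155634307 on the plus strand. An intron of each of these 3 heavy chain genes carries a microRNA on the same strand, in intron 29 of 38 for Myh6, intron 31 of 40 for Myh7 and intron 19 of 41 for Myh7b. The mature forms (RefSeq, GRCm38.p6) are shown because host gene and microRNA share a transcript, and capitals mark the seed, bases 2 to 8.
mmu-miR-208a-3p, in Myh6: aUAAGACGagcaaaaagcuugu
mmu-miR-208b-3p, in Myh7: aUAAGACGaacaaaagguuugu
mmu-miR-499-5p, in Myh7b: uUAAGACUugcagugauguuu
The microRNAs of Myh6 and Myh7 shared all 7 seed bases and differed at 3 positions of the mature sequence. The microRNA of Myh7b shared 6 of the 7 seed bases with either. Levels of these microRNAs were not analysed here.

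Promoter windows of 300 bases, from 250 before to 50 after an annotated start, were taken from RefSeq (GRCm38.p6) for all 8 genes. Those of the neighbouring heavy chain genes are shown because their transcripts take opposite places in the ventricle before and after birth. Capitals mark the MCAT core (GGAATG, or CATTCC on the other strand), which TEAD factors bind, and the TATA box (TATAAA, or TTTATA on the other strand).
Myh6, chr14:54966558-54966857, minus strand: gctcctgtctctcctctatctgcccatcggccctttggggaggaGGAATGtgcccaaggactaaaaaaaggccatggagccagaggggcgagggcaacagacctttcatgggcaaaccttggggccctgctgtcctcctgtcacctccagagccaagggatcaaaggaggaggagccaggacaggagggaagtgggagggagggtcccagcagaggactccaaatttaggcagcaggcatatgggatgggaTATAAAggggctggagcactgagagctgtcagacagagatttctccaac
Myh7, chr14:54994577-54994876, minus strand: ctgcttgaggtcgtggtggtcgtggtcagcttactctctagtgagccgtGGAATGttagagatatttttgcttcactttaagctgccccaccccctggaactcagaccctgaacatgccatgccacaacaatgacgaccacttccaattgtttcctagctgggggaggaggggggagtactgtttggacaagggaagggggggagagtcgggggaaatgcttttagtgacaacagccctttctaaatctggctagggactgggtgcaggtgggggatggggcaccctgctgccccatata
In both windows a match to the MCAT core began at a similar place, at -206 from the annotated start in Myh6 and at -201 in Myh7. A second annotated start of Myh7 gave an overlapping window without this match, so the likeness depends on the starts used. The marked TATA box of Myh6 began at +2, after the annotated start. Neither Myh7 window held these exact letters. The overlapping Myh7 window holds the near form TATATA, and such looser forms were not searched, so a lack of the box in Myh7 is not read. The 8 genes had 11 windows. The MCAT core was present in 5 of these 11, from 5 genes (Myh6, Myh7, Myl3, Myl7 and Mylk3), and in 14.7% of all 32817 promoter windows. The exact core of the thyroid hormone response element (AGGTCA, or TGACCT) was present in 2 of the 11 windows, for Myh7b and Myl2, and in 16.3% of all windows. Imperfect forms of this core were not searched, so its absence from the other windows, that of Myh6 among them, is not read. These are matches of letters only.

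Libraries held between 5985335 and 14365864 counts, and the 8 myosin genes took 2.50% to 3.45% of the counts in WT and 2.81% to 3.88% in B3AR-Tg. Every myosin gene had counts in every animal, and all 8 passed the filter on low counts. Myocytes were followed with 7 markers outside the myosin genes (Irx4, Hey2, Tnnt2, Tnni3, Actn2, Ryr2 and Pln). At the threshold used here 1 of the 7, Ryr2, was higher in B3AR-Tg. The summed level of the 7 was between 11694 and 16008 CPM in WT and between 14454 and 17048 CPM in B3AR-Tg. Irx4 and Hey2 made up little of this sum, with means of 16.1 and 1.26 CPM in WT and 14.5 and 1.54 CPM in B3AR-Tg. The sum was therefore no check of ventricular against atrial myocytes. CPM is a gene's count relative to the size of its library, scaled between libraries by TMM. Markers of other cells were read beside them. Summed CPM of 7 fibroblast markers was 45.5 to 189.8 in WT and 12.01 to 65.1 in B3AR-Tg, and 5 of the 7 were lower at the threshold used here. Summed CPM of 6 endothelial markers was 102.4 to 155.7 in WT and 50.8 to 196.2 in B3AR-Tg, and 1 of the 6, Pecam1, was lower. In bulk RNA, fewer cells of a type and less RNA per cell cannot be told apart. No library pair within a genotype agreed within sampling noise. The p-values measure the spread between animals.

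Of the 10945 genes that passed the filter, 537 (4.91%) differed between genotypes at a Benjamini-Hochberg adjusted p under 0.05 in edgeR's quasi-likelihood test, 222 higher and 315 lower in B3AR-Tg. Scaling by library size alone turned that split to 346 higher and 165 lower. Of the 8 myosin genes 1, Myh7, passed (12.5%), against that background of 4.91%, and 7 did not. Of all tested genes, 2.88% were lower. The log2 fold change was above 0 for 3 and below 0 for 5, with a median of -0.13, while the median over all tested genes was 0.01. Groups overlapped for all 8 myosin genes, and 0.448% of all tested genes had groups that did not overlap.

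Myh7, the slow beta heavy chain, was the myosin gene that differed. WT replicates 1 to 8 held 1258, 5351, 1418, 5327, 948, 797, 916 and 4271 CPM, and B3AR-Tg replicates 1 to 8 held 489.6, 590.4, 415.7, 591.3, 713.9, 592.9, 1093 and 478.3 CPM. Replicates 2, 4 and 8 of WT stood far above the other 5 WT animals, and B3AR-Tg replicate 7 was the only transgenic animal above the lowest WT animal. The median was 1338 CPM over the WT animals and 590.8 CPM over the B3AR-Tg animals. All 8 B3AR-Tg animals lay below the median of the WT animals. The mean was 2536 ± 2063 CPM over the WT animals and 620.7 ± 211.8 CPM over the B3AR-Tg animals (SD, n = 8 each). On the log2 scale Myh7 fell by 2.03 with a standard error of 0.39, a level 4.09-fold higher in WT (edgeR adjusted p = 0.00632). With any single animal left out, the log2 fold change stayed between -2.20 and -1.77, with an adjusted p of at most 0.0167. By limma voom with sample weights it was -1.40 (adjusted p = 0.0186). With the marker level of non-myocyte cells as a covariate it was -1.48, and the call was lost (adjusted p = 0.259). That marker level, a mean log2 CPM, was 2.95 to 3.84 in WT and 1.23 to 3.05 in B3AR-Tg, so covariate and genotype go together, and the part of these cells in the result was not tested.

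The spread of Myh7 between animals was also unequal. The SD of log2 CPM was 1.20 over the WT animals, larger than for 99.1% of tested genes, and 0.43 over the B3AR-Tg animals, larger than for 78.4%. The medians over all tested genes were 0.27 in both genotypes. This difference in spread was not tested.

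Nppa, which encodes the atrial natriuretic peptide and rises in the loaded ventricle, showed the same 3 WT animals at the top. WT replicates 2, 4 and 8 held 1240, 1076 and 1349 CPM of Nppa, and the other WT animals 78.4 to 330.0 CPM. In B3AR-Tg the range was 5.76 to 120.3 CPM, and replicate 7, the highest for Myh7, was also the highest for Nppa. The summed fibroblast markers of WT replicates 2, 4 and 8 were 189.8, 144.2 and 165.5 CPM, and those of the remaining WT animals 45.5 to 109.2 CPM.

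Myh6, the fast alpha heavy chain, was the most counted of the 8 genes. WT replicates 1 to 8 held 15982, 18056, 18444, 15369, 16641, 17479, 20814 and 13971 CPM. B3AR-Tg replicates 1 to 8 held 21634, 22292, 17087, 20590, 23877, 19730, 18740 and 20690 CPM. All 8 B3AR-Tg animals were above the WT median, but the ranges overlapped. The log2 fold change was 0.27 (standard error 0.09), a 1.20-fold higher mean level, and it did not pass (edgeR adjusted p = 0.108). By DESeq2 it did (adjusted p = 0.0326), and also by limma voom with sample weights (0.0480) and after scaling by library size alone (0.0482).

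The isoform ratio was then taken within each library, where scaling between libraries plays no part. Myh7 made up 7.29%, 22.9%, 7.14%, 25.7%, 5.39%, 4.36%, 4.21% and 23.4% of Myh6 plus Myh7 counts in WT replicates 1 to 8. In B3AR-Tg replicates 1 to 8 it made up 2.21%, 2.58%, 2.38%, 2.79%, 2.90%, 2.92%, 5.51% and 2.26%. Replicate 7 was the only B3AR-Tg animal within the WT range. The mean share was 12.6% ± 9.59 in WT and 2.94% ± 1.07 in B3AR-Tg (SD, n = 8 each), and the median share 7.22% and 2.69%. The log2 ratio of Myh7 to Myh6 differed by -1.92 (B3AR-Tg minus WT, standard error 0.48), 3.79-fold on the linear scale (exact permutation p = 0.000622, two-sided, 0.00186 when adjusted over the 3 ratios computed). Summed over both genes, heavy chain transcripts were at 19630 ± 2188 CPM over the WT animals and 21201 ± 2121 CPM over the B3AR-Tg animals, with ranges that overlapped.

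**Figure D1:**
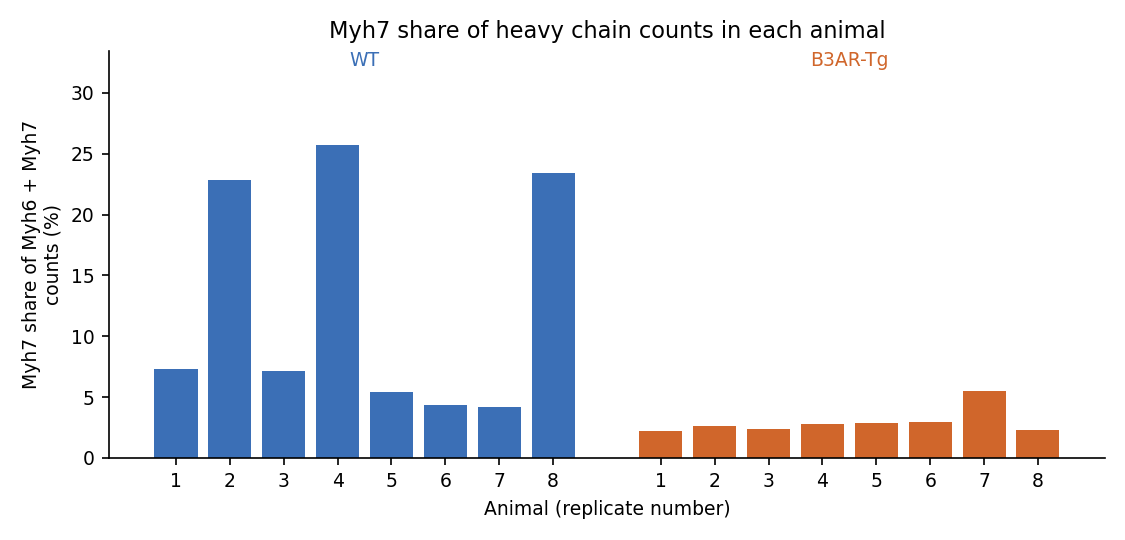
Bars give Myh7 counts as a percent of Myh6 plus Myh7 counts (vertical axis) in each animal, WT in blue and B3AR-Tg in orange, by replicate number. WT animals lie between 4.21% and 25.7%, with 3 of them at 22.9% or more, and B3AR-Tg animals between 2.21% and 5.51%.

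The sequences of Myh6 and Myh7 bear on these values. Of the 31-base windows of the Myh7 transcript, 31.7% also occur in the Myh6 transcript, and of the 100-base windows 11.2% do. The submitters' processing notes name Salmon, but how reads matching both genes were assigned was not given in the sources used here, so a low Myh7 level beside a high Myh6 level is uncertain to that extent. Myh7b shared 0.065% of its 31-base windows with each of the other heavy chains.

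Myh7b, a slow-type heavy chain gene whose transcript is low in the heart, had 14.5 to 33.2 CPM in WT with a median of 22.7, and 13.5 to 26.8 CPM in B3AR-Tg with a median of 21.2. The log2 fold change was -0.18 (standard error 0.18, edgeR adjusted p = 0.635), and 6 of the 8 B3AR-Tg animals were below the WT median. A difference in Myh7b larger than the spread between animals was not found.

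Neither ventricular light chain passed the test between genotypes. The SD of log2 CPM over the WT animals was 0.24 for Myl2 and 0.09 for Myl3, beside a median of 0.27 over all tested genes. Myl2 lay between 4524 and 7422 CPM over the WT animals (median 6068) and between 5796 and 7161 CPM over the B3AR-Tg animals (median 6392), with overlapping ranges (log2 fold change 0.09, standard error 0.10, edgeR adjusted p = 0.673). The lowest Myl2 levels belonged to WT replicates 2 (4524 CPM) and 8 (5108 CPM), which are among the 3 animals highest in Myh7, while the other of these, replicate 4, held 6103 CPM, above the WT median. Myl3 lay between 2508 and 3025 CPM over the WT animals and between 2307 and 3183 CPM over the B3AR-Tg animals (log2 fold change -0.09, standard error 0.08, edgeR adjusted p = 0.549). Mylk3 had the smallest spread of the 8 genes in WT, with 611.0 to 691.6 CPM and an SD of 0.08 on the log2 scale. In B3AR-Tg it lay between 590.5 and 738.0 CPM (log2 fold change 0.08, standard error 0.07, edgeR adjusted p = 0.552).

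**Figure D2:**
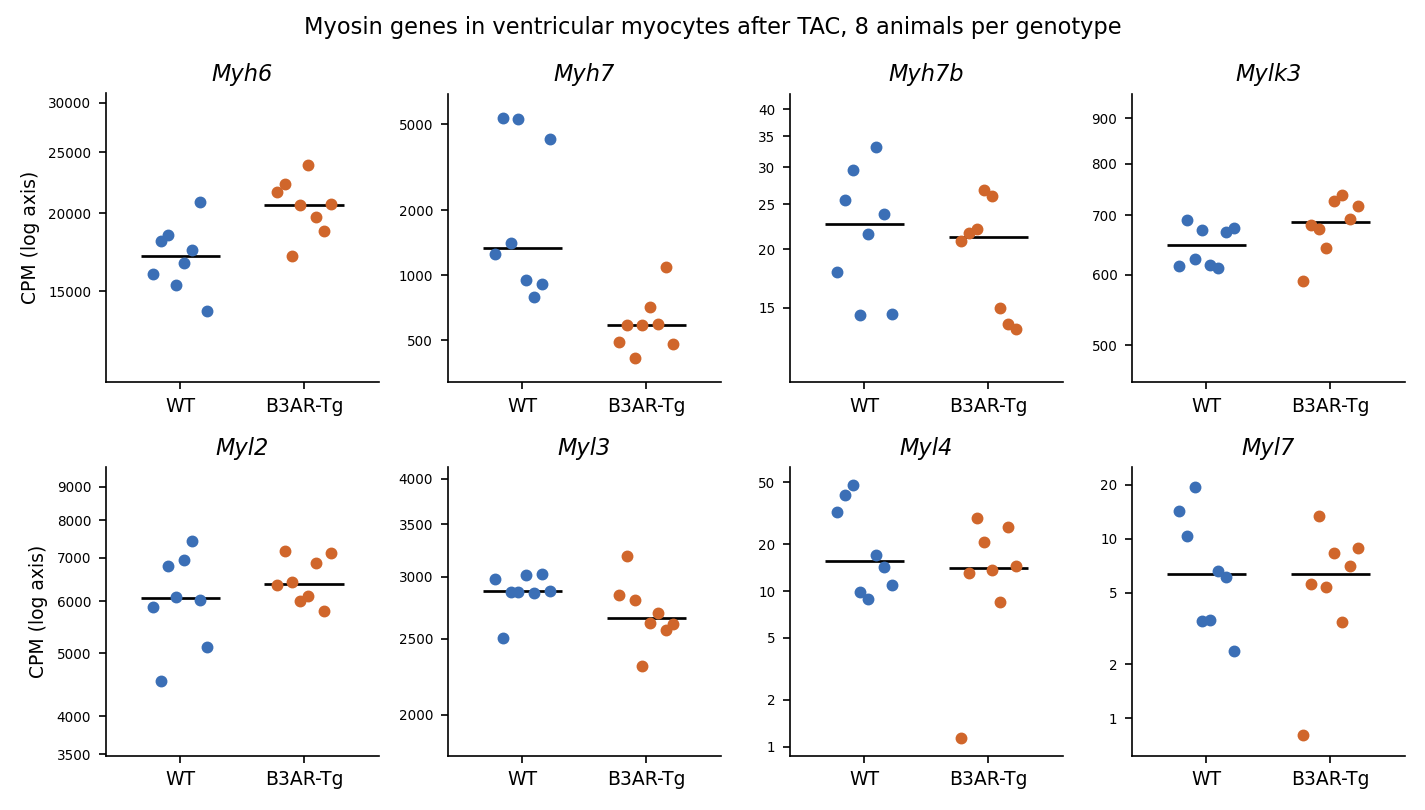
Each point is the CPM of 1 animal (log axes, which differ between panels), in replicate order from left to right, and each line is the median of 8 animals. WT animals of Myh7 form a high group of 3 and a lower group of 5, Myl4 and Myl7 each have 1 very low B3AR-Tg animal, and the genotypes overlap in every panel.

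The atrial light chains were low and spread widely between animals of both genotypes. Myl4 was at 32.4, 41.5, 48.2, 9.82, 8.89, 16.9, 14.2 and 10.9 CPM in WT replicates 1 to 8. In B3AR-Tg replicates 1 to 8 it was at 1.14, 13.1, 29.4, 20.6, 13.7, 8.51, 25.6 and 14.5 CPM. WT replicates 1, 2 and 3 were highest, and of these replicate 2 is also among the 3 animals highest in Myh7. Myl7 was at 14.3, 10.4, 19.3, 3.48, 3.53, 6.62, 6.15 and 2.36 CPM in WT, and at 0.803, 5.56, 13.5, 5.36, 8.35, 3.42, 7.08 and 8.91 CPM in B3AR-Tg. Neither gene differed beyond this spread, with log2 fold changes of -0.55 (standard error 0.43, edgeR adjusted p = 0.518) for Myl4 and -0.32 (standard error 0.43, edgeR adjusted p = 0.730) for Myl7. With single animals left out they ranged from -0.74 to -0.30 and from -0.55 to -0.018, in both cases from B3AR-Tg replicate 3 to WT replicate 3 left out, and were -0.36 and -0.14 without B3AR-Tg replicate 1, the lowest animal for both.

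Within libraries, the ratios of atrial to ventricular light chains did not differ either. The log2 ratio of Myl7 to Myl2 was -9.85 ± 1.08 over the WT animals and -10.3 ± 1.25 over the B3AR-Tg animals (exact permutation p = 0.502). That of Myl4 to Myl3 was -7.26 ± 1.02 and -7.83 ± 1.53 (exact permutation p = 0.441). Both had an adjusted p of 0.502 over the 3 ratios.

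Both atrial light chains followed each other across animals. Of 12 relations between pairs of these genes, 6 in each genotype, 2 passed after adjustment over the 12, and both were Myl4 with Myl7. In WT, Pearson's r was 0.935 (exact permutation p = 0.00141, adjusted p = 0.0170) and Spearman's rho 0.881 (exact permutation p = 0.00724, adjusted p = 0.0869). It was 0.931 without the 2 animals farthest from the median of Myl4. In B3AR-Tg, r was 0.933 (exact permutation p = 0.00526, adjusted p = 0.0315) and rho 0.738 (exact permutation p = 0.0458, adjusted p = 0.275). There r was 0.490 without the 2 farthest animals, so the relation in B3AR-Tg rests on them, and replicate 1 is among them. Myl2 with Myl3 did not pass in either genotype (r of 0.633 and 0.611, exact permutation p = 0.0916 and 0.101, adjusted p = 0.304 for both). The 4 relations of Myh7 in WT are among the 12 and did not pass (adjusted p from 0.356 to 0.983 by exact permutation), and as its WT levels form groups of 3 and 5 animals, nothing is read from their r.

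**Figure D3:**
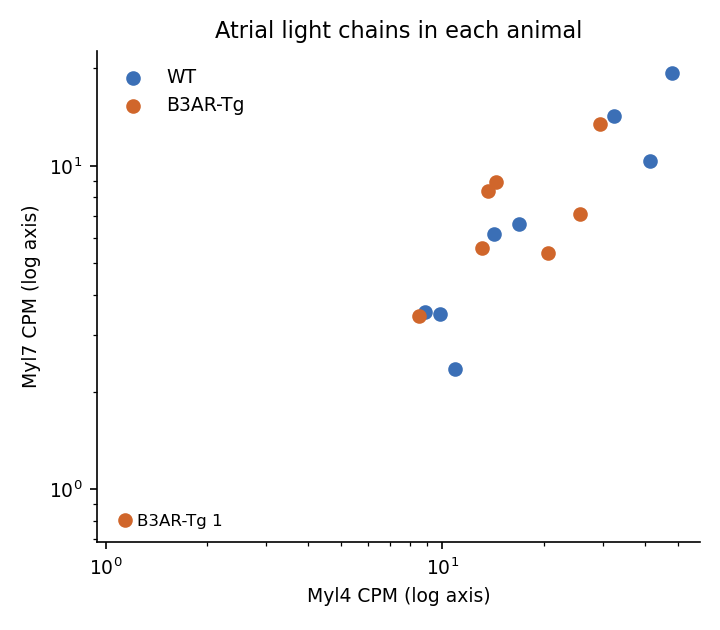
Each point is 1 animal, with Myl4 CPM on the horizontal and Myl7 CPM on the vertical log axis, WT in blue and B3AR-Tg in orange. The animals lie along a rising band, and B3AR-Tg replicate 1 lies apart at 1.14 CPM of Myl4 and 0.803 CPM of Myl7.

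Markers of atrial myocytes were read beside these genes. Of 6 markers that are not light chains, 3 passed the low-count filter, and 0 of these passed the test in edgeR, while 1 (Dkk3) had an unadjusted p under 0.05, as did 19.3% of all tested genes. Sln, the atrial regulator of the calcium pump, held 5 to 79 counts in WT libraries and 1 to 52 in B3AR-Tg libraries, with the lowest value, 0.0669 CPM, in B3AR-Tg replicate 1. Bmp10, a growth factor of the atrium, held 0 to 25 counts in WT and 0 to 3 in B3AR-Tg. The summed level of the 6 markers was 11.96 to 33.2 CPM in WT and 12.9 to 26.7 CPM in B3AR-Tg. Stard10, with means of 11.9 (WT) and 14.2 CPM (B3AR-Tg), made up most of the mean sum and had a log2 fold change of 0.26, while those of Sln and Dkk3 were -0.58 and -1.23. WT replicate 3, the highest in Myl4 and Myl7, had the highest sum. Over the 16 animals, deviations of Myl7 from the genotype means had r = 0.758 with those of Sln and r = 0.925 with those of Myl4, given as a description. Of the 6 markers, r is given for Sln only. Bmp10 held 25 counts in WT replicate 3, but also 13 in WT replicate 4, where Myl7 was low at 3.48 CPM. It held 1 count in B3AR-Tg replicate 3, the highest transgenic animal for both light chains. The part of atrial cells in the light chain values was not tested.

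Levels of different genes were compared per kilobase of the CCDS transcript. In WT, Myl2 was at 9218 ± 1453 CPM per kilobase, Myl3 at 3069 ± 175.4, Myh6 at 2796 ± 343.7, Myh7 at 407.0 ± 331.1 and Mylk3 at 175.1 ± 9.16. Far lower came Myl4 at 25.4 ± 17.3, Myl7 at 14.01 ± 10.1 and Myh7b at 3.67 ± 1.11. In B3AR-Tg, Myh6 (3367 ± 345.6) came before Myl3 (2885 ± 270.9), and Mylk3 (184.9 ± 13.1) before Myh7 (99.6 ± 34.0). The ranges of Myl3 and Myh6 overlapped in both genotypes, as did those of Myh7 and Mylk3, of Myl4 and Myl7, and of Myl7 and Myh7b.

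**Figure D4:**
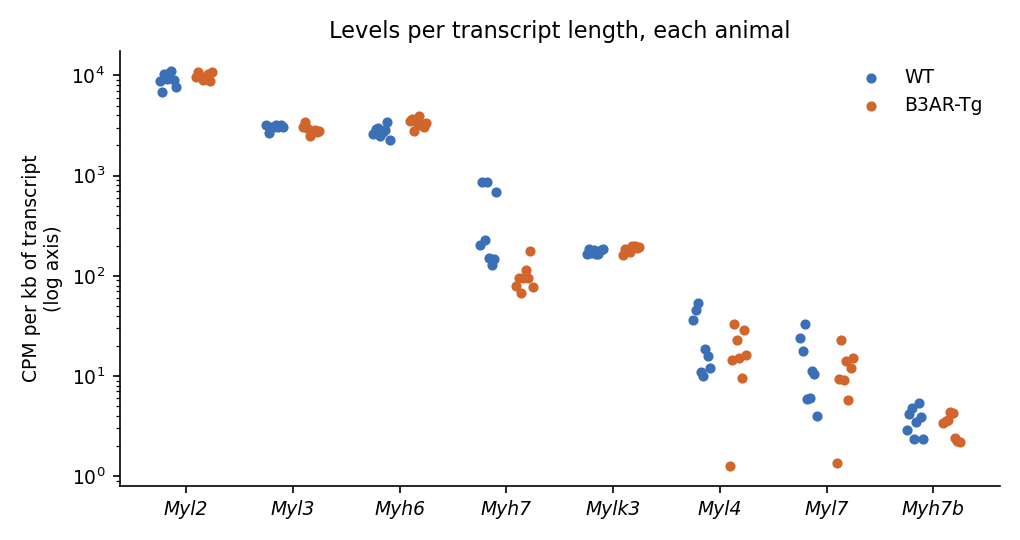
Points give CPM per kilobase of transcript (log axis) for each animal, genes in order of the WT mean, WT in blue and B3AR-Tg in orange. Myl2, Myl3 and Myh6 lie at 2285 or more in all animals, and Myl4, Myl7 and Myh7b at 53.5 or less.

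Other myosin chains of the sarcomere, smooth muscle and non-muscle cells were examined as a list of 19 genes, of which 9 passed the low-count filter. At the adjusted threshold 0 rose and 2 of the 9 fell, against 2.88% of all tested genes lower. Myl12a, a regulatory light chain of non-muscle and smooth muscle myosin, fell from 432.3 ± 78.9 to 294.6 ± 64.4 CPM (-0.55 on the log2 scale, standard error 0.13, edgeR adjusted p = 0.0225). Myh10, a non-muscle heavy chain, fell from 19.6 ± 7.75 to 11.0 ± 3.03 CPM (-0.83 on the log2 scale, standard error 0.20, edgeR adjusted p = 0.0226). For both genes all 8 B3AR-Tg animals lay below the median of the WT animals. Without WT replicate 4 the adjusted p-values were 0.0541 and 0.0508, with library size alone 0.0515 and 0.0539, and with the covariate for other cells 0.260 and 0.522. With that covariate the log2 fold change was -0.52 for Myl12a and -0.42 for Myh10. The list's median log2 fold change was -0.55, with 8 of the 9 below 0, beside the fibroblast markers, of which 5 of 7 were lower. The part of other cells in these values was not tested.

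Of 20 partners of myosin (other kinases, the myosin phosphatase, myosin-binding proteins and chaperones), 17 were tested, and 1 rose and 1 fell, against 2.03% of all tested genes higher and 2.88% lower. Unc45b, a chaperone that folds the myosin head, rose from 112.8 ± 25.1 to 166.4 ± 50.6 CPM (0.56 on the log2 scale, standard error 0.16, edgeR adjusted p = 0.0464). All 8 B3AR-Tg animals were above the WT median for it. Mylk, the smooth muscle light chain kinase, fell from 2.54 ± 0.834 to 1.19 ± 0.616 CPM (-1.08 on the log2 scale, standard error 0.31, edgeR adjusted p = 0.0464). Both calls sat at the threshold. With single animals left out, Unc45b passed in 5 of 16 fits (adjusted p up to 0.0971) and Mylk in 4 of 16 (up to 0.105). With the covariate for other cells neither passed, Unc45b at 0.57 (adjusted p = 0.304) and Mylk at -0.62 (adjusted p = 0.544). The list's median log2 fold change was -0.02.

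Factors known to govern the choice between Myh6 and Myh7 formed the last list. Thyroid hormone, acting through its nuclear receptors paired with retinoid X receptors, is known to raise Myh6 and lower Myh7, and Sox6 is a repressor of slow muscle genes. Of 23 genes 20 were tested, and 6 (30.0%) rose and 0 fell, against 2.03% of all tested genes higher. The list was chosen with earlier results of these data known, so this contrast is a description only. The list's median log2 fold change was 0.08, against 0.01 over all tested genes, with 14 genes above 0 and 6 below. The part of these regulators in the Myh6 and Myh7 levels was not tested.

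Both thyroid hormone receptor genes rose. Thra was at 18.7 to 29.6 CPM in WT with a median of 25.0, and at 28.0 to 35.1 CPM in B3AR-Tg with a median of 31.1 (log2 fold change 0.35, standard error 0.09, edgeR adjusted p = 0.0360). Thrb was at 11.4 to 20.3 CPM in WT and 16.7 to 28.3 CPM in B3AR-Tg (log2 fold change 0.47, standard error 0.12, edgeR adjusted p = 0.0310). Rxra, a retinoid X receptor, rose from 27.4 ± 4.61 to 37.0 ± 4.39 CPM (log2 fold change 0.44, edgeR adjusted p = 0.0202), and its groups touched, with the highest WT animal at 32.49 and the lowest B3AR-Tg animal at 32.46. Slc16a10, a transporter of aromatic amino acids and thyroid hormone, rose from 13.8 ± 3.52 to 19.0 ± 1.82 CPM (log2 fold change 0.47, edgeR adjusted p = 0.0400).

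Among transcription factors, Sox6 rose from 16.3 ± 2.62 to 22.5 ± 2.63 CPM (0.46 on the log2 scale, standard error 0.10, edgeR adjusted p = 0.0142). Mef2d, a MADS-box factor of muscle genes, rose from 37.4 ± 6.68 to 49.7 ± 7.45 CPM (log2 fold change 0.41, edgeR adjusted p = 0.0378). For Thra, Rxra, Slc16a10, Sox6 and Mef2d all 8 B3AR-Tg animals were above the WT median, and for Thrb 7 were. With single animals left out, Sox6 and Rxra passed in all 16 fits, Thra in 9, Thrb in 8, Mef2d in 5 and Slc16a10 in 4, with adjusted p-values of at most 0.0878. With the covariate for other cells 0 of the 6 passed, and adjusted p-values were between 0.0830 for Mef2d and 0.321 for Slc16a10, with log2 fold changes of 0.33 to 0.64.

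**Figure D5:**
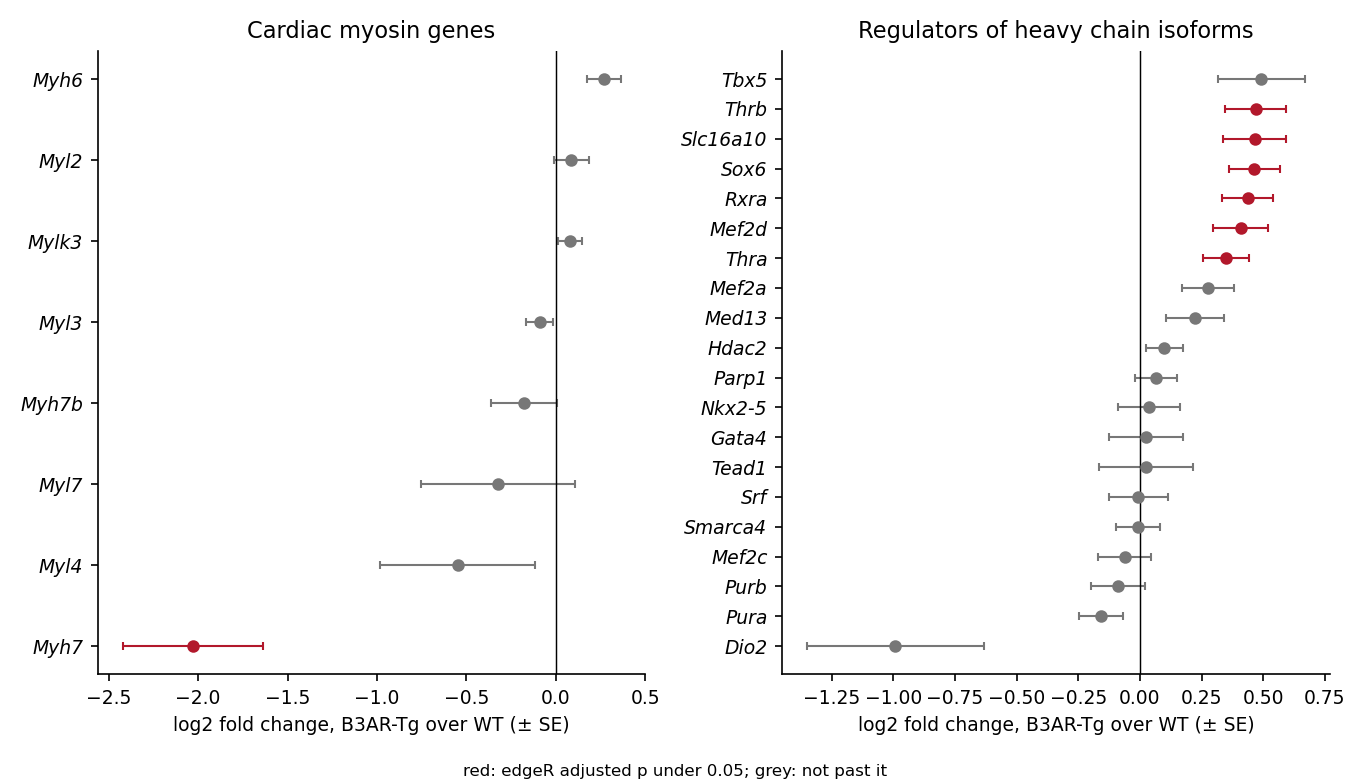
Points give the log2 fold change of B3AR-Tg over WT and bars its standard error, for the 8 cardiac myosin genes (left) and 20 tested regulators of the heavy chain isoforms (right). Red marks an edgeR adjusted p under 0.05, reached by Myh7 at -2.03 and by 6 regulators between 0.35 and 0.47.

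Genes whose pattern was most like that of a heavy chain were sought among all tested genes, by Pearson's r of deviations from the genotype means over the 16 animals. For Myh7 these were Gemin5 (r = 0.917), F2r (0.894), Msn (0.883), Strn (0.868) and Plxnb2 (0.865). Nppa had r = 0.824. For the 5 genes r was 0.891 to 0.972 over the WT animals, where Myh7 has 3 high animals, and 0.486 to 0.846 over the B3AR-Tg animals. Of the 5, F2r, the thrombin receptor, was itself lower in B3AR-Tg (log2 fold change -0.74, edgeR adjusted p = 0.0221).

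For Myh6 the most similar genes were Vwa8 (r = 0.937), Fyco1 (0.887), Sdha (0.859), Abcc9 (0.857) and Zbtb18 (0.837). Of these, Sdha, a subunit of succinate dehydrogenase, Abcc9, the sulfonylurea receptor of the cardiac potassium channel gated by ATP, and Fyco1 were higher in B3AR-Tg, with log2 fold changes of 0.37, 0.44 and 0.42 (edgeR adjusted p = 0.0249, 0.0132 and 0.0336). For Myl7 they were Orc5 (0.858), Mybphl (0.844), Zfp40 (0.814), 2610021A01Rik (0.793) and Ap1s1 (0.774). Mybphl, a myosin-binding protein of the atrium, had mean levels of 1.89 CPM (WT) and 1.24 CPM (B3AR-Tg). These correlations describe 16 libraries of one preparation type, and carry no test.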

How the data were processed

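The authors deposited whole-number counts per gene without normalization, 1 column per animal. Per the labels' protocols, myocytes came from Langendorff perfusion, and 500 ng of RNA was depleted of ribosomal RNA for stranded, paired-end libraries. Per the submitters' processing notes, Salmon and the genome build GRCm39 were used, so the counts may be rounded estimates. Gene positions come from GENCODE M21 (GRCm38), matched by gene ID, not from GRCm39.

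The low-count filter was edgeR's filterByExpr with a minimum count of 10 and a minimum total of 15. Libraries were scaled by TMM, and genotype was tested with edgeR 4.0.16 in R 4.3.3 (quasi-likelihood F test, 16 animals, genotype only, two-sided). Adjustment ran over all 10945 tested genes, threshold 0.05. Fits were tested on simulated data. Ratios were compared by exact permutation over 12870 splits, correlations over 40320 pairings. Log2 CPM used a prior count of 2. DESeq2 1.42.0 and limma 3.58.1 were alternatives. Members and lists were chosen with earlier results of these data known. The text names all 8 myosin genes, Nppa, up to 5 genes per list past the threshold by smallest p, and the 5 genes most like Myh7, Myh6 and Myl7. Slc16a10, the sixth regulator past the threshold, and Dio2, which did not pass, were added after their values were seen. Markers of skeletal muscle fibres, mural cells and leukocytes are given in the closing section. The values of 1 atrial marker are not reported here.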

Additional observations from a re-analysis of the deposited data

Results flagged for a closer look

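The 8 genes and 3 ratios were searched in each genotype for an animal whose gap to its nearest neighbour takes an unusually large part of the group's range on the log2 scale (above 0.526 for 8 animals). Such an animal was found in 4 of 22 groups, where chance gives about 1 in 20, or 1.1.

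Myl3 was low in WT replicate 2, with 2508 CPM, while the remaining WT animals held 2856 to 3025 CPM, a gap of 0.694 of the range. Myl4 was low in B3AR-Tg replicate 1, at 1.14 CPM (17 counts) against 8.51 to 29.4 CPM in the others, a gap of 0.619. The log2 ratio of Myl4 to Myl3 in the same animal was -11.3 against -8.31 to -6.57, a gap of 0.632. That library was the deepest, with 14365864 counts. The log2 ratio of Myh7 to Myh6 was high in B3AR-Tg replicate 7, at -4.10 against -5.47 to -5.06 in the other B3AR-Tg animals, a gap of 0.701. Nppa in that animal was 120.3 CPM, against 5.76 to 50.3 CPM in the others.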

How the results depend on the processing

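The 537 genes called became 230 with a replicate block, 10 with the covariate for other cells, 109 at a threshold of 0.01 and 908 at 0.1, and 272 to 675 with single animals left out (272 without WT replicate 4, 277 without B3AR-Tg replicate 5, 345 without B3AR-Tg replicate 8). The replicate numbers do not pair the animals: 0 of 8 same-numbered pairs correlated above 0.1 (r from -0.219 to 0.0935), and 0 WT animals correlated best with their own number. DESeq2 called 804 genes. Myh7 kept its sign and its call under 28 of 29 alternatives, losing the call with the covariate for other cells (-1.48), was -1.40 by limma voom and -1.65 with the replicate block, and ranged from -2.20 to -1.77 with single animals left out. Myh6 passed under 3 alternatives, library size only (0.35), DESeq2 (0.26) and limma voom (0.27), and ranged from 0.23 to 0.31 with single animals left out. The ratio of Myh7 to Myh6 kept its sign and call under all 19 alternatives run for it, with adjusted p-values up to 0.0469, which was with the replicate block. Its log2 differences were -2.11 to -1.69 with single animals left out, and -1.50 by medians of the 8 animals. Leaving out 1 animal keeps at least 2 of the 3 WT animals highest in Myh7. The covariate for other cells, under which Myh7 lost its call, was not applied to the ratio. By medians, the differences reversed for Myl7 to Myl2 (0.13) and for Myl4 to Myl3 (0.029), and Myl2 reversed with the covariate for other cells (-0.10), none past the threshold. Without the 2 farthest animals, 0 relations between genes passed after adjustment, Myh7 with Myl4 in WT turned to r = -0.0967 and Myh7 with Myh7b in B3AR-Tg to r = 0.597. With library size only, Myl2 with Myl3 in WT turned to r = -0.445. The cause was not tested. A level of 3 counts corresponded to between 0.201 and 0.487 CPM, depending on the library.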

Other observations

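Light chain transcripts were set against heavy chain transcripts per kilobase in each library. Myl2 per Myh6 plus Myh7 was 2.93 ± 0.642 in WT and 2.85 ± 0.347 in B3AR-Tg, and the lowest value, 1.79, was in WT. Myl3 per Myh6 plus Myh7 was 0.971 ± 0.139 in WT and 0.839 ± 0.111 in B3AR-Tg. Myl2 per Myl3 was 3.00 ± 0.408 in WT and 3.41 ± 0.268 in B3AR-Tg. The ranges overlapped for each of these ratios, which were chosen after the values were seen and not tested.

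Heavy chains of skeletal muscle were close to absent. Myh8, the perinatal heavy chain, held 3 to 23 counts in WT libraries and 3 to 12 in B3AR-Tg libraries, and was removed by the low-count filter. Markers of skeletal muscle fibres summed to 9.15 to 38.7 CPM in WT and 9.79 to 23.6 CPM in B3AR-Tg, with 0 of 1 tested gene past the threshold. That gene, Mybpc2, made up nearly all of the sum, at 8.50 to 38.2 CPM in WT and 8.67 to 23.1 CPM in B3AR-Tg. Actn3, Tnnt3, Tnni2 and Pvalb were each at 0.963 CPM or less in every animal. Markers of mural and smooth muscle cells summed to 79.5 to 138.3 CPM in WT and 42.4 to 136.0 CPM in B3AR-Tg, with 0 of 4 tested genes past it. Markers of leukocytes summed to 4.03 to 10.5 CPM in WT and 0.706 to 5.49 CPM in B3AR-Tg, with 0 of 2 tested genes past it. Dio2, which encodes the deiodinase that activates thyroid hormone, had 1.65 ± 0.743 CPM over the WT animals and 0.816 ± 0.434 CPM over the B3AR-Tg animals, and did not pass (edgeR adjusted p = 0.120).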
